A study of Mus musculus with 13 samples.

Results

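The mouse mitochondrial genome, chrM, is a small circle that every nucleated cell carries in many copies. Its transcripts were taken here as every gene that the deposited count tables place on chrM, which gave 37 of 37785 genes, namely 13 protein-coding, 2 ribosomal RNA (rRNA) and 22 transfer RNA (tRNA) genes. All 37 passed the low-count filter. They were followed in total RNA of cells sorted from the brain of wild-type C57BL/6 mice with magnetic beads against Pdgfra, a receptor of oligodendrocyte precursor cells (OPCs), the progenitors of myelin-forming oligodendrocytes. The 4 ages were embryonic day 16 (E16, 3 libraries), postnatal day 12 (P12, 3 libraries), P80 (3 libraries, of which 2 have an age field of 81 days) and P310 (4 libraries, with age fields a few days under 310). No group carries an engineered allele or a drug treatment in the labels, and the comparison is between ages. At P80 and P310, and at neither younger age, cells were also passed over myelin removal beads, so that a difference between the 2 older and the 2 younger ages and an effect of that step cannot be told apart.

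Both strands of chrM are transcribed as long molecules that run through many genes. In most places a tRNA gene lies between 2 longer genes, and excision of the tRNA frees the RNAs on either side, a layout known as tRNA punctuation. The heavy-strand transcript carries both rRNAs, 12 of the 13 protein-coding messages and 14 of the tRNAs, and the light-strand transcript carries mt-Nd6 and 8 tRNAs. The 13 proteins are all subunits of the respiratory chain and the ATP synthase, which otherwise consist of proteins encoded in the nucleus. In the OPC lineage, mitochondria are known to supply energy and metabolites for the growth of myelin membrane.

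The genes are packed so closely that counts of neighbours are not fully separate. Of 36 neighbouring pairs, 21 have no base between them and 9 of these overlap. The authors counted a read for every gene it overlapped by at least 10 bases, per the file headers, so a read across a border counts for both genes. The longest overlap is of 43 bases between mt-Atp8 and mt-Atp6, both subunits of ATP synthase. The mt-Atp8 gene is printed here to show that overlap (GRCm38, chrM:7766-7969, plus strand, GENCODE M21 transcript), with the bases it shares with mt-Atp6 in capitals.
mt-Atp8: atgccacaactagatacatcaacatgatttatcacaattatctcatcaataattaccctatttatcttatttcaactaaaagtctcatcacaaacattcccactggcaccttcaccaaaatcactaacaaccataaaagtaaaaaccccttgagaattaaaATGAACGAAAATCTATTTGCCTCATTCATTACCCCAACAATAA
The border between the 2 rRNAs shows the tRNA punctuation (chrM:995-1123, plus strand). It starts with the last 30 bases of mt-Rnr1 in lower case, continues with the whole of mt-Tv, the valine tRNA, in capitals, and ends with the first 30 bases of mt-Rnr2.
mt-Rnr1 end, mt-Tv, mt-Rnr2 start: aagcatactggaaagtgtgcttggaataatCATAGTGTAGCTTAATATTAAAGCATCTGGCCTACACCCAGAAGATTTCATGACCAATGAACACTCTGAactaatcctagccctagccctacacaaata

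The tRNA genes with the most counts were mt-Ts1 (serine), mt-Te (glutamate), mt-Tl1 (leucine) and mt-Ty (tyrosine), and they are shown because their levels rest on the most reads. Each is written 5′ to 3′ on its own strand with the anticodon in capitals, from GENCODE M21 transcripts on GRCm38. The positions are chrM:6870-6938 (minus strand), chrM:14071-14139 (minus), chrM:2676-2750 (plus) and chrM:5260-5326 (minus).
mt-Ts1: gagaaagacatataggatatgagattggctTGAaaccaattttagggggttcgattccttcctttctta
mt-Te: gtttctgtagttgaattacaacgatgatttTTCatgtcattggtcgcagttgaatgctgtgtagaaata
mt-Tl1: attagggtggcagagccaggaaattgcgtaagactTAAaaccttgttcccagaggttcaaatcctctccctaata
mt-Ty: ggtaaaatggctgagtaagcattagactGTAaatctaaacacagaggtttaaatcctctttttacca
These genes of 67 to 75 bases are shorter than a usual sequenced fragment, so a read over one of them will often extend into its neighbours. Counting used no strand option per the file headers, and reads from a minus-strand gene and from the opposite transcript of the same place cannot be told apart.

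Copies of mitochondrial genes in the nuclear genome can take up or lend reads. Among annotated transcripts (GENCODE M21), 11 of the 37 genes had a nuclear copy that matched at 90% or more over at least 100 bases, 17 copies in all. For 7 genes (mt-Atp6, mt-Co1, mt-Co2, mt-Co3, mt-Nd3, mt-Nd4 and mt-Nd4l) a copy on chromosome 1 matched at 99% or more. No counts of those 7 copies were used here, and how far they share reads with chrM was not tested. The closeness of the match is seen at the start of mt-Nd3, a complex I subunit (chrM:9459-9476, plus strand), beside the start of its copy Gm28438 (chr1:24613102-24613119, minus strand), with the base that differs in capitals.
mt-Nd3: atTaacctgtacactgtt
Gm28438: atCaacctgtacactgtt
This T3C difference, with positions counted from the first base of mt-Nd3 and the chrM base given first, was the 1 difference over the 345 bases of the copy.

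The libraries held 8669521 to 25810455 gene counts. A count of 0 allows up to 3 counts, which is 0.116 CPM (counts scaled to a common total) in the deepest library and 0.346 CPM in the shallowest, a limit that covers counting error only. Over coding genes the counts of P12 replicates 2 and 3 lay close to sampling noise (chi-square per degree of freedom 2.33, against 15 to 176 in the 14 other pairs of libraries of 1 age), and both were summed into 1 sample, here P12 replicate 2-3. This left 3, 2, 3 and 4 samples. Over the chrM genes alone that pair gave 40.3, with chrM shares of 10.8% and 10.1%. P12 replicate 1 gave 45.9 and 52.3 against replicates 2 and 3 (all 14 other pairs 9.48 to 1250.0). The ground for summing therefore holds for the coding genes and not for the chrM genes alone. Age fields differ between some of the P80 and some of the P310 libraries, but the labels do not say whether every library came from a separate animal. The p-values therefore measure the spread between these samples.

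Markers of several cell types moved with age as well. The summed level of the 8 OPC markers was 341 to 405 CPM at E16, 513 to 572 at P12, 207 to 277 at P80 and 144 to 274 at P310, and Pdgfra itself ranged from 13.7 to 93.6 CPM. Single OPC markers did not all follow the sum. Cspg4 was at 9.56 to 20.3, 54.2 to 64.8, 59.1 to 116 and 54.6 to 82.7 CPM at these ages. Olig2 was at 4.31 to 7.48, 12.6 to 15.8, 1.18 to 7.04 and 0.132 to 12.5 CPM. Sox10 was at 1.58 to 4.54, 16.3 to 45.6, 4.56 to 6.91 and 1.02 to 58.0 CPM. The 8 endothelial markers summed to 38.8 to 62.7 CPM at E16 and to 3642 to 6961 CPM in all later samples. The 6 immature neuron markers went the other way, from 5554 to 6663 CPM at E16 to 77.0 to 242 CPM later. Each of the 7-gene astrocyte and microglia lists and the 6-gene mural list was above its E16 range in all later samples. The 8 oligodendrocyte markers summed to 59.9 to 77.8 CPM at E16 and to 329 to 908 CPM later, except for 8172 CPM in P12 replicate 1 and 67204 CPM in P310 replicate 2. The 6 mature neuron markers (18.8 to 310.2 CPM) and the 5 erythroid markers (255 to 4300 CPM) overlapped between E16 and later ages. No gene of these lists was at 0 in all samples of an age. Such shifts coincide with the differences between E16 and later ages below. The OPC, astrocyte, immature neuron and erythroid sums were also lower in all P80 samples than in both P12 samples. Between P80 and P310 the sums of every list overlapped. The part of these shifts in the results was not tested. In bulk RNA, fewer cells of a type and less RNA per cell cannot be told apart.

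Mitochondrial transcripts took a larger share of the counts in every later sample than in any E16 sample. They held 1.52%, 3.54% and 1.71% of all gene counts in the E16 samples and 4.44% and 10.4% in the P12 samples. The share was 12.8%, 23.5% and 19.2% at P80 and 34.4%, 29.1%, 18.3% and 24.5% at P310. The highest E16 sample lay below the lowest P12 sample and the highest P12 sample below the lowest P80 sample, while the P80 and P310 samples overlapped. The means were 2.26% ± 1.11 (SD, n = 3) in the E16 group, 7.4% ± 4.19 (n = 2) in the P12 group, 18.5% ± 5.36 (n = 3) in the P80 group and 26.6% ± 6.86 (n = 4) in the P310 group.

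Taken over the 4 ages, the log2 share differed with an exact permutation test of the F statistic over all 277200 arrangements of the 12 samples (p = 0.000289, 1 value per sample). Between E16 and P80 the geometric mean rose 8.56-fold, a log2 difference of 3.10, and all 3 P80 samples were above all 3 E16 samples (exact two-sided permutation p = 0.1, the smallest that 3 against 3 samples allow). The 2 steps that make up this interval were 3.23-fold (E16 to P12, log2 difference 1.69) and 2.65-fold (P12 to P80, 1.40), each with an exact permutation p of 0.2, the smallest that 3 against 2 samples allow. How the rise divides between them depends on the P12 samples, since the log2 differences were 2.30 and 0.79 without P12 replicate 1 and 1.08 and 2.02 without P12 replicate 2-3. From P80 to P310 the difference was 1.44-fold (log2 0.53, exact permutation p = 0.229, smallest possible 0.0571), within the spread of the samples.

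**Figure D1:**
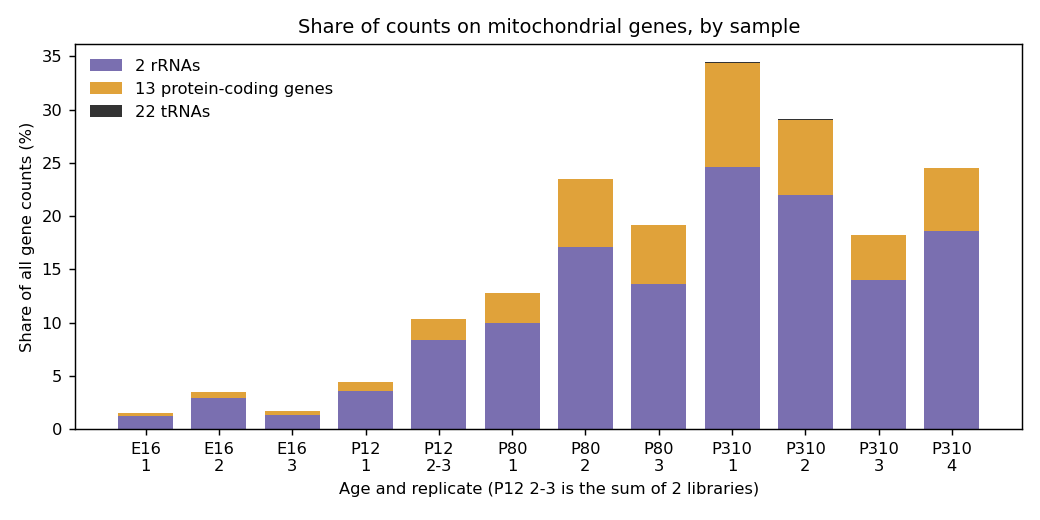
Share of all gene counts (%, vertical axis) on the mitochondrial rRNAs, protein-coding genes and tRNAs, stacked, in each of 12 samples ordered by age and replicate (horizontal axis). The total lies at 1.52% to 3.54% at E16 and at 18.3% to 34.4% at P310, most of it rRNA, and the tRNA layer is too thin to see in most bars.

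Most of that share was rRNA. The 2 rRNAs held 1.83% ± 0.935 of all counts at E16, 6% ± 3.37 at P12, 13.5% ± 3.57 at P80 and 19.8% ± 4.56 at P310 (SD, n = 3, 2, 3 and 4). The 13 protein-coding genes held 0.426% ± 0.184, 1.4% ± 0.809, 4.94% ± 1.83 and 6.72% ± 2.34 at the same ages. The 22 tRNA genes held at most 0.059% of the counts in any sample.

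The levels below are CPM after TMM scaling, in which a library's total is corrected for differences in composition. The TMM factor was 0.631 in P310 replicate 2 and 0.875 to 1.16 in the other samples. By share of counts P310 replicate 1 was the highest sample, whereas in scaled CPM P310 replicate 2 was higher for many genes. Changes are log2 differences with their standard error, from edgeR's quasi-likelihood test fitted to 21170 genes, and a gene is called where its Benjamini-Hochberg adjusted p over all of these is under 0.05.

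mt-Rnr2, the 16S rRNA of the large mitochondrial ribosomal subunit, was the gene with the most counts per length, at a mean of 56765 CPM per kb over the samples, followed by mt-Rnr1, the 12S rRNA of the small subunit, at 39033 CPM per kb. The level of mt-Rnr2 was 8331, 19245 and 8157 CPM at E16, 23961 and 56944 CPM at P12, 59891, 132684 and 95839 CPM at P80 and 197353, 242391, 99253 and 133575 CPM at P310. That of mt-Rnr1 was 3069.8, 6817 and 3209 CPM at E16, 8834 and 20151 CPM at P12, 25562, 53159 and 37407 CPM at P80 and 84122, 105622, 43646 and 55716 CPM at P310. For both genes the 3 younger ages did not overlap with each other, and P310 overlapped with P80.

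Both rRNAs rose from E16 to P12, mt-Rnr2 by 1.76 ± 0.51 (adjusted p = 0.0187) and mt-Rnr1 by 1.73 ± 0.48 (adjusted p = 0.0149) on the log2 scale. From E16 to P80 they rose by 3.01 ± 0.50 (adjusted p = 2.25e-04) and 3.15 ± 0.47 (adjusted p = 9.60e-05). From P12 to P80 mt-Rnr2 differed by 1.25 ± 0.54 (adjusted p = 0.449) and mt-Rnr1 by 1.42 ± 0.51 (adjusted p = 0.302), neither of them called. From P80 to P310 the values were 0.81 ± 0.44 (adjusted p = 0.871) and 0.90 ± 0.42 (adjusted p = 0.871).

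The rise from E16 to P80 covered all 13 protein-coding genes, with log2 changes of 2.95 to 4.32 and a median of 3.63, against a median of 0.12 over all genes tested. Over all 37 genes, 30 rose and none fell, while 21.5% of all genes tested were called higher and 19.2% lower in that comparison. In 31 of the 37 every P80 sample lay above every E16 sample, as in 28.2% of all genes. The earlier step, from E16 to P12, called 16 of the 37 higher and none lower (16.7% of all genes were higher and 10.5% lower). The 16 were both rRNAs, 10 protein-coding genes and 4 tRNAs, and the median log2 change of the 37 was 1.63, against 0.091 over all genes tested. In 25 of the 37 both P12 samples lay above all E16 samples, as in 30.9% of all genes. The count of calls rests on single samples. It was 0 of 37 without E16 replicate 1, without E16 replicate 3 or without P12 replicate 2-3, and up to 20 without 1 of the other samples.

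From P12 to P80, none of the 37 was called with edgeR, although 23 had an unadjusted p under 0.05. In that comparison edgeR called 0.406% of all genes higher and 1.02% lower. DESeq2 called 13 of the 37 higher and limma-voom none. Their shares over all genes are not given here, so the 13 cannot be set against the edgeR shares. The median log2 change of the 37 was 1.81 (all genes -0.031), and in 24 of them every P80 sample lay above both P12 samples, as 11.1% of all genes did. From P80 to P310 none was called with edgeR, DESeq2 or limma-voom. An unadjusted p under 0.05 was found for 2 with edgeR, 2 with DESeq2 and 6 with limma-voom. The share called over all genes was 0% with edgeR. In none of the 37 did the P310 samples all lie above the P80 samples, while 2.27% of all genes did so. Over the 4 ages together 32 of the 37 were called, against 37.1% of all genes.

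**Figure D2:**
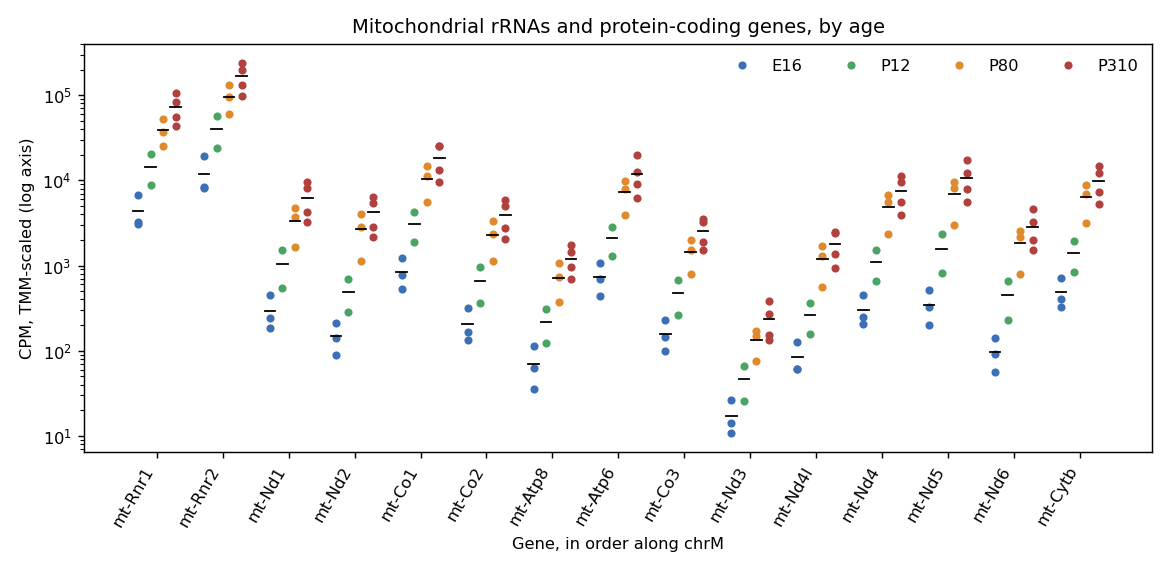
TMM-scaled CPM (log axis) of the 2 rRNAs and the 13 protein-coding genes, in order along chrM, with 1 point per sample coloured by age and a black line at each age's mean. In each gene all P80 points lie above all E16 points, and the P80 and P310 points overlap.

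Complex I, which passes electrons from NADH to ubiquinone, has 7 subunits encoded on chrM. All 7 rose from E16 to P80 (median log2 change 4.02), where 21.5% of all genes were called higher. The most changed members of complex I were the neighbours mt-Nd5, on the heavy-strand transcript, and mt-Nd6, the message of the light-strand transcript. mt-Nd5 was at 199.5, 511 and 330.0 CPM at E16, 806 and 2340.5 CPM at P12, 3033, 9546 and 8237 CPM at P80 and 17181, 12192, 5538 and 7911 CPM at P310. It rose by 2.18 ± 0.61 (adjusted p = 0.0188) from E16 to P12 and by 4.32 ± 0.63 (adjusted p = 1.56e-04) from E16 to P80. mt-Nd6 was at 55.8, 142 and 90.8 CPM at E16, 229.9 and 665 CPM at P12, 806, 2545 and 2172 CPM at P80 and 4634, 3264, 1515 and 2009.6 CPM at P310. It rose by 2.22 ± 0.62 (adjusted p = 0.0201) and by 4.26 ± 0.64 (adjusted p = 2.46e-04) in the same comparisons. For both genes each of the 3 younger ages was separate from the next, and 2 of the 4 P310 samples lay within the P80 range and 2 above it. The 2 genes overlap by 14 bases on opposite strands, and with unstranded counts, reads of the heavy-strand RNA across mt-Nd6 cannot be told apart from its own.

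The other complex I messages had smaller or similar changes. From E16 to P80, mt-Nd2 rose by 4.18 ± 0.61 (adjusted p = 2.00e-04), mt-Nd4 by 4.02 ± 0.55 (adjusted p = 7.98e-05) and mt-Nd4l, which shares 7 bases with mt-Nd4, by 3.83 ± 0.56 (adjusted p = 1.72e-04). mt-Nd1 rose by 3.51 ± 0.59 (adjusted p = 5.03e-04). From E16 to P12, 5 of the 7 rose, and mt-Nd2 differed by 1.73 ± 0.60 (adjusted p = 0.0509) and mt-Nd3 by 1.44 ± 0.55 (adjusted p = 0.0747).

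mt-Nd3 was the lowest protein-coding gene per length, at a mean of 354 CPM per kb, and had the smallest change of the 13. Its levels were 10.8, 26 and 14.1 CPM at E16, 25.8 and 66.1 CPM at P12, 76, 169.8 and 149 CPM at P80 and 271, 382, 135 and 152 CPM at P310. The highest E16 and the lowest P12 sample lay at almost the same level, and all P80 samples lay above all P12 samples. It rose by 2.95 ± 0.53 (adjusted p = 9.31e-04) from E16 to P80. It is also one of the genes with a near-identical copy on chromosome 1, shown above.

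mt-Cytb encodes cytochrome b, the 1 subunit of complex III that mitochondria encode. Its levels were 324, 723 and 409 CPM at E16, 846 and 1948 CPM at P12, 3160.1, 8940.2 and 6942 CPM at P80 and 14786, 12251, 5351 and 7345 CPM at P310. The 3 younger ages were separate from each other. It rose by 1.53 ± 0.53 (adjusted p = 0.0467) from E16 to P12 and by 3.71 ± 0.53 (adjusted p = 9.88e-05) from E16 to P80. From P12 to P80 the difference was 2.18 ± 0.58 (adjusted p = 0.11), the smallest adjusted p of the 37 genes in that step.

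Complex IV, cytochrome c oxidase, takes its 3 catalytic core subunits from chrM, and all 3 rose both from E16 to P12 and from E16 to P80. Over all genes 16.7% and 21.5% were called higher in these comparisons. The calls at P12 were lost without E16 replicate 1, E16 replicate 3 or P12 replicate 2-3. mt-Co1, the largest of the 3 subunits, was at 537, 1237 and 773 CPM at E16, 1885 and 4197 CPM at P12, 5612, 14719 and 11150.2 CPM at P80 and 25014, 25261, 9486 and 13157 CPM at P310. Its 3 younger ages did not overlap, and 2 of the 4 P310 samples lay within the P80 range and 2 above it. The rise of mt-Co1 was 1.84 ± 0.52 (adjusted p = 0.0171) to P12 and 3.63 ± 0.52 (adjusted p = 8.47e-05) to P80. mt-Co2, the subunit that receives electrons from cytochrome c, went from 205 ± 95.5 CPM at E16 to 2257 ± 1087 CPM at P80 (SD, n = 3 each), a rise of 3.46 ± 0.57 (adjusted p = 4.58e-04). mt-Co3 went from 158 ± 63.9 to 1442 ± 606 CPM (SD, n = 3 each), a rise of 3.19 ± 0.49 (adjusted p = 2.26e-04).

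ATP synthase, complex V, takes mt-Atp6 and mt-Atp8 from chrM. mt-Atp6, a subunit of the proton channel, had the most counts per length of the protein-coding genes (9275 CPM per kb). It was at 433, 1062 and 694 CPM at E16, 1311 and 2869 CPM at P12, 3942, 9791 and 7973 CPM at P80 and 12654, 19748, 6214 and 9106 CPM at P310. The ages from E16 to P80 were separate. It rose by 1.52 ± 0.52 (adjusted p = 0.0452) to P12 and by 3.31 ± 0.52 (adjusted p = 1.90e-04) from E16 to P80. mt-Atp8, whose last 43 bases are those of mt-Atp6 shown above, differed by 1.63 ± 0.58 (adjusted p = 0.0569) to P12, short of the threshold, and rose by 3.37 ± 0.57 (adjusted p = 6.28e-04) from E16 to P80. It went from 69.8 ± 39 CPM at E16 to 722 ± 351 CPM at P80 (SD, n = 3 each).

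Levels per length were far from even along the 2 transcripts. The mean over all samples ran from 56765 CPM per kb in mt-Rnr2 over 9275 in mt-Atp6, 6096 in mt-Co1 and 4591 in mt-Cytb to 1695 in mt-Co3 and 354 in mt-Nd3. Among the tRNAs it ran from 1232 CPM per kb in mt-Ts1 and 940.2 in mt-Te to 13.6 in mt-Td and 9.64 in mt-Tp. mt-Nd6, alone on its strand among the messages, lay at 2911 CPM per kb, beside 3099 for mt-Nd5 and 2915 for mt-Nd4. These per-length values do not correct for reads shared with a neighbour or a nuclear copy.

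**Figure D3:**
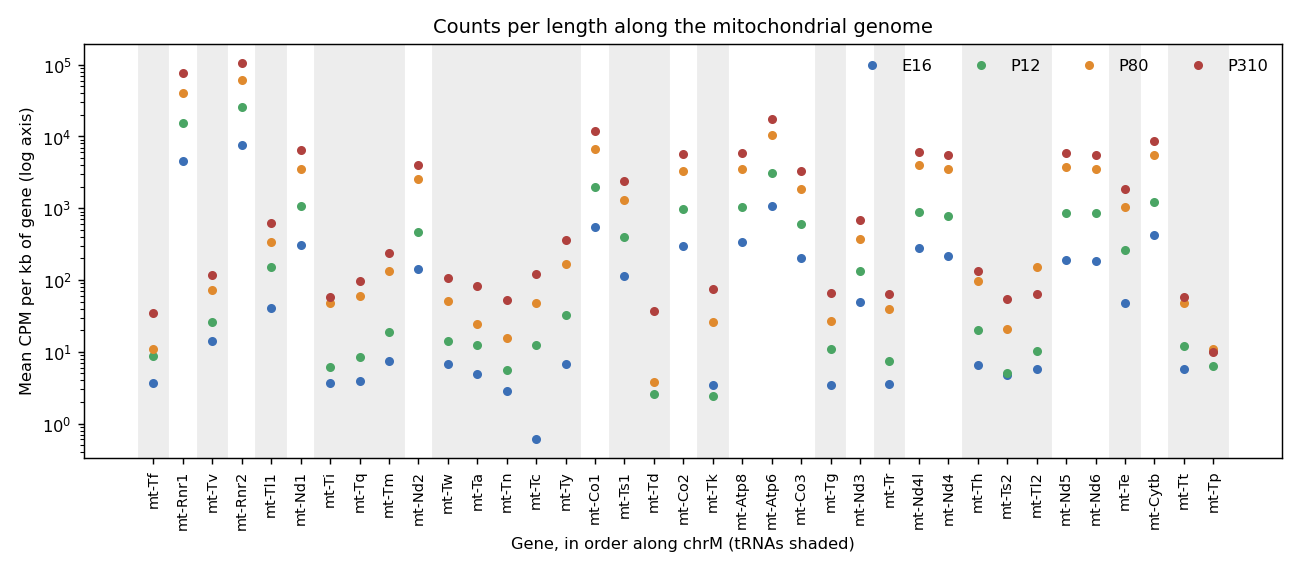
Mean TMM-scaled CPM per kb of gene (log axis) at each age for the 37 genes in order along chrM, with tRNA genes shaded. The rRNAs are the highest at every age, the lowest values belong to tRNA genes that differ from age to age, and a mean of 0 (mt-Td at E16) is not drawn.

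Mature tRNAs are short, folded and rich in modified bases and are poorly captured by standard libraries, and counts on a tRNA gene cannot be told apart from reads of longer RNA that runs through it. From E16 to P80, 15 of the 22 tRNA genes rose and none fell, where 21.5% of all genes were called higher and 19.2% lower. They comprised 10 of 14 on the heavy strand and 5 of 8 on the light strand, and the median log2 changes of all members were 3.05 and 3.71 (3.04 on the heavy strand without mt-Td, which had 0 counts at E16). From E16 to P12, 4 of the 22 rose (mt-Ts1, mt-Te, mt-Tl1 and mt-Tc), a share close to the 16.7% of all genes called higher. Of these, mt-Tc had 0, 1 and 1 counts at E16, so its call (adjusted p = 0.0484) rests on very few reads. None of the 22 was called in the steps from P12 to P80 (8 with an unadjusted p under 0.05) or from P80 to P310 (1), with edgeR. Over all genes edgeR called 1.42% and 0% in these steps.

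mt-Ts1, which shares 3 bases with the end of mt-Co1 on the opposite strand, had the most counts of the tRNA genes. It was at 4.03, 11.5 and 7.84 CPM at E16, 15.6 and 39.5 CPM at P12, 51.8, 118 and 101 CPM at P80 and 215, 251, 88.5 and 116 CPM at P310. Its 3 younger ages were separate. It rose by 1.82 ± 0.56 (adjusted p = 0.0306) to P12 and by 3.53 ± 0.56 (adjusted p = 3.17e-04) from E16 to P80.

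mt-Te lies next to mt-Nd6 on the same strand. It was at 1.29, 5.31 and 3.36 CPM at E16, 5.97 and 29.98 CPM at P12, 32.1, 82.2 and 104 CPM at P80 and 227, 132, 71.8 and 83.1 CPM at P310. The 3 younger ages did not overlap, and P310 replicate 1 was the highest of all samples. mt-Te rose by 2.44 ± 0.79 (adjusted p = 0.0422) to P12 and by 4.44 ± 0.80 (adjusted p = 0.00123) from E16 to P80. mt-Tl1, between mt-Rnr2 and mt-Nd1, was at 1.51, 5.31 and 2.36 CPM at E16, 5.35 and 17.4 CPM at P12, 9.94, 42.1 and 24.9 CPM at P80 and 57.9, 64.1, 31.1 and 32.9 CPM at P310. The E16 samples lay below all later samples, and P12 and P80 overlapped. mt-Tl1 rose by 1.90 ± 0.66 (adjusted p = 0.0477) and by 3.05 ± 0.64 (adjusted p = 0.00187) in the same comparisons.

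mt-Ty was at 0.503, 0.543 and 0.295 CPM at E16, 0.932 and 3.45 CPM at P12, 3.92, 21.8 and 8.2 CPM at P80 and 35.2, 38.7, 10.2 and 12.9 CPM at P310, with no overlap between the 3 younger ages. It rose by 4.63 ± 0.82 (adjusted p = 4.33e-04) from E16 to P80, and the step to P12 was 2.32 ± 0.82 (adjusted p = 0.0509). mt-Tc, the cysteine tRNA, stood at 0, 0.0603 and 0.0589 CPM at E16, 0.186 and 1.46 CPM at P12, 1.08, 8.02 and 0.417 CPM at P80 and 16.1, 9.23, 2.58 and 4.08 CPM at P310. All later samples exceeded the E16 samples, which held 0 or 1 read each, so that its fitted change of 5.97 ± 1.43 (adjusted p = 0.00387) to P80 depends on how such low counts are treated. mt-Td, the aspartate tRNA, had 0 counts in all 3 E16 libraries, which allows up to 0.238, 0.202 and 0.205 CPM there before TMM scaling. At P80 it had 3, 2 and 5 counts, or 0.19, 0.247 and 0.347 CPM. The values of 0.247 and 0.347 CPM lie above these limits, but all rest on few reads. With 0 counts at E16 no fold is given for mt-Td, although its adjusted p was 0.0458. That call was lost without any 1 of 10 of the 12 samples (adjusted p up to 0.104).

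The levels of the remaining called tRNA genes were low, with means under 10 CPM at P80 except for mt-Tl2. mt-Tm (methionine), between mt-Tq and mt-Nd2, rose by 4.15 ± 0.88 (adjusted p = 0.00167) and mt-Th (histidine) by 3.86 ± 0.80 (adjusted p = 0.00135). mt-Tr (arginine), mt-Tw (tryptophan), mt-Tt (threonine) and mt-Tv (valine, shown above between the rRNAs) rose by 3.47 ± 0.95, 2.88 ± 0.98, 3.04 ± 1.02 and 2.34 ± 0.74. The last 3 of these calls were lost without single samples, with mt-Tw at 2.02 (adjusted p = 0.139) without P80 replicate 3, and mt-Tt at 1.61 (adjusted p = 0.208) and mt-Tv at 1.66 (adjusted p = 0.0996) without P80 replicate 2. Leaving out E16 replicate 1 ended the calls of mt-Tw and mt-Tv, E16 replicate 2 those of mt-Tt and mt-Tv, and E16 replicate 3 those of mt-Tw and mt-Tt. mt-Tv, which lies between the 2 most abundant genes, had 0.575, 0.904 and 1.41 CPM at E16, 1.74 and 1.86 CPM at P12, 2.53, 8.76 and 3.61 CPM at P80 and 9.76, 15.9, 2.58 and 4.67 CPM at P310, and its E16 samples lay below all others. For mt-Ti (isoleucine) the call rested on P80 replicate 2, since the P80 samples stood at 0.317, 9.26 and 0.208 CPM and the E16 samples at 0.288, 0.362 and 0.118 CPM. Its change was 3.61 ± 1.30 (adjusted p = 0.0378), and 0.047 (adjusted p = 0.979) without that sample. mt-Tq (glutamine), which shares 3 bases with mt-Ti on the opposite strand, had the same high sample (0.57, 11.6 and 0.556 CPM at P80), with a change of 3.89 ± 1.17 (adjusted p = 0.0161) and 1.02 (adjusted p = 0.384) without P80 replicate 2. Neither call held without any 1 of the 3 E16 samples.

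mt-Tl2, the second leucine tRNA, had 400 counts in P80 replicate 3, which is 27.8 CPM. The other samples ranged from 0.0719 to 7.91 CPM. It rose from E16 to P80 by 4.68 ± 1.23 (adjusted p = 0.00752), with P80 samples of 0.886, 3.33 and 27.8 CPM, and by 2.39 (adjusted p = 0.0987) without P80 replicate 3, which ended the call. mt-Tp, the proline tRNA at chrM:15356-15422 on the minus strand, had the fewest counts of all 37 genes. Its levels were 1.08, 0.422 and 0.53 CPM at E16, 0.497 and 0.36 CPM at P12, 0.317, 0.864 and 1.04 CPM at P80 and 0.132, 1.32, 0 and 1.19 CPM at P310. The ages overlapped throughout, and its change from E16 to P80 was 0.13 ± 1.28 (adjusted p = 0.947). It and 6 others (mt-Tf, mt-Ta, mt-Tn, mt-Tk, mt-Tg and mt-Ts2) made up the 7 tRNA genes not called between E16 and P80, with log2 changes of 0.13 to 2.86 and at most 364 counts each over all libraries.

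The make-up of the mitochondrial RNA also differed between ages. Of 8 measures of composition, each 1 value per sample and compared over the 4 ages with an exact permutation test of F, 4 had an adjusted p under 0.05 over the 8. The complex I messages took 34, 34.4 and 33.4% of the protein-coding chrM counts at E16, 36.2 and 39.5% at P12, 39.1, 42.5 and 43.9% at P80 and 44.3, 39, 40.9 and 40.6% at P310. All later samples exceeded the E16 samples, and P12 overlapped with both adult ages (exact permutation p = 0.00468, adjusted p = 0.0125).

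The complex IV messages took 32.6, 31.7 and 32.1% at E16, 33.5 and 32.2% at P12, 30.6, 28.9 and 27.4% at P80 and 29.8, 30.9, 30.5 and 30.04% at P310. All adult samples lay below all younger ones (exact permutation p = 0.00325, adjusted p = 0.0125). The ratio of mt-Rnr2 to mt-Rnr1 per kb was 1.64, 1.7 and 1.53 at E16, 1.64 and 1.71 at P12, 1.41, 1.51 and 1.55 at P80 and 1.42, 1.39, 1.37 and 1.45 at P310. It was below the P12 values in every adult sample, while 1 P80 value lay above the lowest E16 value (exact permutation p = 0.00358, adjusted p = 0.0125). Whether the library kit removed part of the mitochondrial rRNA is not given in the sources used here.

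mt-Nd6 stood at 2.59 ± 0.174 counts per 100 counts of the 12 heavy-strand messages at E16, 3.49 ± 0.459 at P12, 3.78 ± 0.382 at P80 and 3.63 ± 0.55 at P310 (SD, n = 3, 2, 3 and 4). All later samples exceeded the E16 samples (exact permutation p = 0.0235, adjusted p = 0.0469), and the call held in 8 of 17 alternatives. The other 4 measures did not pass. The rRNA share of chrM counts was 80.6 ± 3.2% at E16, 81.1 ± 0.304% at P12, 73.7 ± 3.46% at P80 and 75 ± 2.39% at P310 (exact permutation p = 0.0389, adjusted p = 0.0622). The complex V share went from 21 ± 1.29% at E16 to 16.2 ± 2.72% at P310 (exact permutation p = 0.0563, adjusted p = 0.0751). The complex III share and the tRNA share had adjusted exact permutation p of 0.0851 and 0.186.

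Single genes showed which messages moved within the 13, given here as a description with no test. The share of mt-Nd5 among the protein-coding chrM counts was 8.43, 9.12 and 9.76% at E16, 10.7 and 12.9% at P12, 12.3, 13.8 and 15.1% at P80 and 15.4, 10.9, 12.9 and 13.3% at P310. It and mt-Nd6 were the 2 genes whose share was higher in every later sample than in every E16 sample. mt-Atp6, at 18.3, 19 and 20.5% at E16, 17.5 and 15.8% at P12, 16, 14.1 and 14.6% at P80 and 11.3, 17.6, 14.5 and 15.4% at P310, was lower in every later sample. mt-Co3 went from a mean of 4.2% at E16 to 3.21% at P310 and mt-Nd3 from 0.446% to 0.289%, also without overlap with E16 at any later age. The shares of the other 8 genes overlapped between E16 and later ages. mt-Co1 stayed the largest, at 20.4% to 25.1% in all samples. P310 replicates 1 and 2 lay at the 2 ends of the P310 range for both mt-Nd5 and mt-Atp6.

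**Figure D4:**
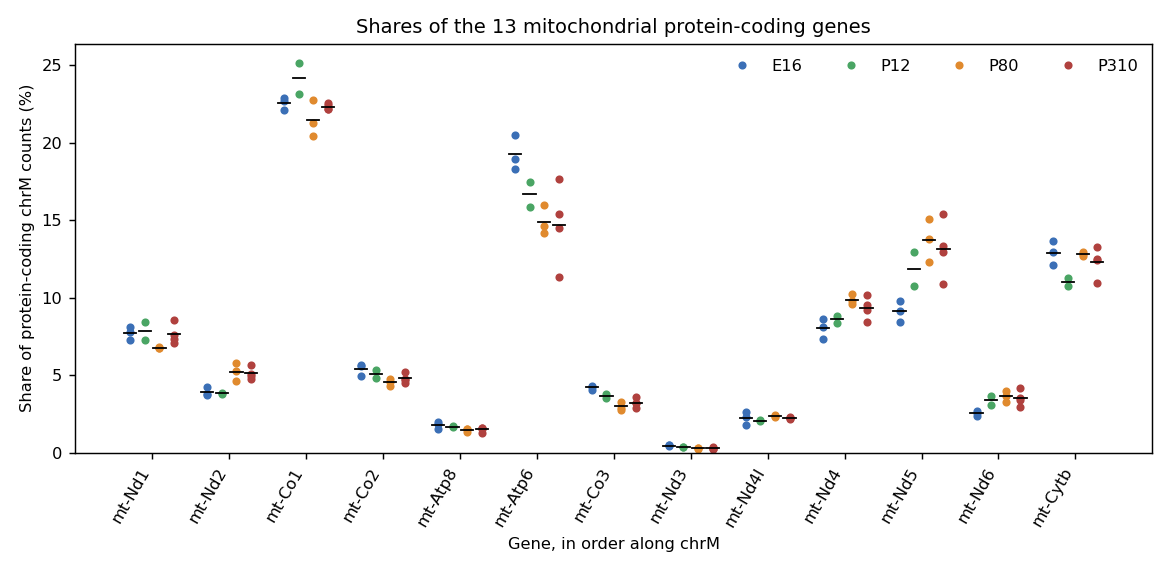
Share of each of the 13 genes in the protein-coding chrM counts (%), by age, with 1 point per sample and a black line at each mean. mt-Nd5 and mt-Nd6 lie lower at E16 than at any later age, and mt-Atp6, mt-Co3 and mt-Nd3 lie higher.

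Transcription of chrM depends on nuclear genes. POLRMT is its RNA polymerase, TFAM and TFB2M start transcription, TWNK, POLG and SSBP1 replicate the DNA, LRPPRC with SLIRP stabilises the messages, and coactivators such as PGC-1α (Ppargc1a) and PGC-1β (Ppargc1b) raise the number of mitochondria. Of 39 such genes, all tested, 15 were called from E16 to P80, a share close to the 40.7% of all genes called in either direction. Of the 15, 5 rose and 10 fell, where 21.5% of all genes were called higher and 19.2% lower. The median log2 change of the 39 was -0.35 (all genes 0.12). From E16 to P12, 2 rose and 5 fell, a smaller share than the 27.2% of all genes called (16.7% higher and 10.5% lower). None was called from P12 to P80 (1 had an unadjusted p under 0.05) or from P80 to P310 (2) with edgeR. DESeq2 and limma-voom also called none of them in these steps. Over all genes edgeR called 1.42% and 0% in these steps, so a lack of calls says little here.

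Polrmt did not pass in any comparison, with -0.077 ± 0.26 (adjusted p = 0.839) from E16 to P80 and a mean of 23.2 ± 5.44 CPM at E16 and 22 ± 1.37 CPM at P80 (SD, n = 3 each). Tfam, which also packages the mitochondrial DNA, fell from 27.7 ± 4.21 to 11.3 ± 5.06 CPM (SD, n = 3 each), a log2 change of -1.30 ± 0.36 (adjusted p = 0.0103), or -0.93 (adjusted p = 0.0547) without P80 replicate 3. Twnk, the DNA helicase, changed by -2.26 ± 0.41 (adjusted p = 4.46e-04) and Slirp by -0.92 ± 0.25 (adjusted p = 0.00894), both downwards. The other 7 that fell were 1110008L16Rik, Elac2, Grsf1, Lrpprc, Ssbp1, Tfb1m and Tfb2m. Those that rose were Fastk, a regulator of mt-Nd6 RNA, by 1.24 ± 0.29 (adjusted p = 0.00322), Ppargc1b by 2.12 ± 0.62 (adjusted p = 0.0136) and Polg, the DNA polymerase, by 0.71 ± 0.21 (adjusted p = 0.0149), with Mterf4 and Rexo2. Ppargc1b and Polg were not called without E16 replicate 3 (adjusted p = 0.0616 and 0.0515), and the counts of called genes fell to 2 higher and 4 lower without it and to 4 lower without P80 replicate 3. Ppargc1a differed by 0.75 ± 0.33 (adjusted p = 0.078). At P12 Twnk changed by -1.92 ± 0.46 (adjusted p = 0.00612) and Tfam by -1.30 ± 0.41 (adjusted p = 0.0302) relative to E16. The Tfam call at P12 was lost without either P12 sample and without E16 replicate 2 or 3, and that of Twnk without P12 replicate 1 (adjusted p = 0.0625).

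Nuclear-encoded subunits of the respiratory complexes were followed through a chosen list, which holds part of them. Of its 25 genes (complexes I to V, of which complex II has no subunit from chrM), 13 fell and none rose from E16 to P80, with a median log2 change of -0.86, where 19.2% of all genes were called lower (8 of the 25 fell without E16 replicate 3). The lowest adjusted p were those of ATP synthase subunits. Atp5b, the catalytic beta subunit, changed by -1.47 ± 0.23 (adjusted p = 1.26e-04), Atp5a1, the alpha subunit, by -1.31 ± 0.21 (adjusted p = 1.62e-04) and Atp5o by -1.74 ± 0.30 (adjusted p = 2.98e-04). At P12 the same 3 genes and Cox5a were already lower than at E16 (4 of 25, 10.5% of all genes lower). None of the 25 was called in the later steps with edgeR (3 from P12 to P80 and 1 from P80 to P310 with an unadjusted p under 0.05). Over all genes edgeR called 1.42% from P12 to P80 and 0% from P80 to P310. The 4 calls at P12 numbered 0 without P12 replicate 2-3, 1 without E16 replicate 3 and 2 without E16 replicate 2. Over the interval from E16 to P80 all 13 mitochondrial messages rose by at least 2.95 on the log2 scale, and the highest change among the 25 nuclear subunits was 0.23 in Ndufs8, not called. Cell type markers moved over the same interval, in which immature neuron markers were high at E16 and endothelial markers low, and their part in the difference was not tested.

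**Figure D5:**
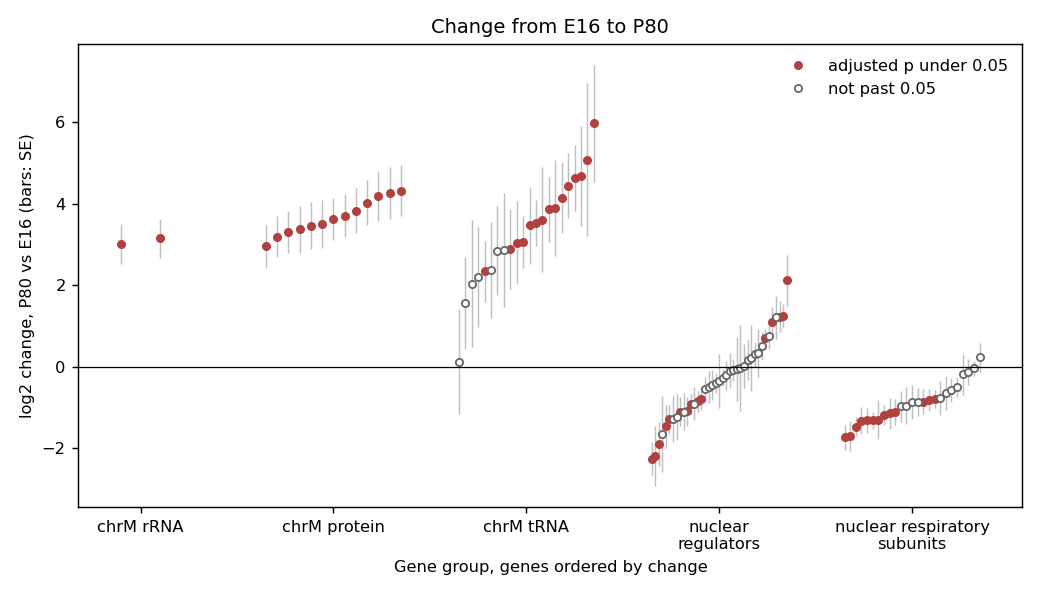
log2 change from E16 to P80 with its standard error for each gene of the mitochondrial groups and the 2 nuclear lists, ordered by change within each group. Filled points have an adjusted p under 0.05, and the rRNA and protein-coding groups lie at 2.95 or higher while no called gene of the nuclear subunit list lies above 0. The fitted change of mt-Td, with 0 counts at E16, depends on the fit.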

How the data were processed

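Total RNA of brain cells sorted on Pdgfra was sequenced with a low-input stranded kit, per the labels' protocols. Per the file headers, the authors deposited unnormalized read counts, obtained with featureCounts 1.5.0-p1 over the exons in Ensembl release 92 (GRCm38). The headers also record a minimum overlap of 10 bases, counting of multi-mapping and multi-overlapping reads, and no strand option. Trim Galore and TopHat2 2.1.1 are named in the submitters' processing notes. Reads shared with a neighbouring gene or a nuclear copy can thus be counted more than once.

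Samples were grouped by age, and P12 replicates 2 and 3 were summed. Genes passing filterByExpr were scaled by TMM, and the 12 samples were fitted together, with 1 mean per age, by the robust quasi-likelihood method of edgeR 4.0.16 (R 4.3.3). Adjusted p-values cover the 21170 genes tested, with a threshold of 0.05, and standard errors were derived from the F statistic. Shares and composition, 1 value per sample, were compared with exact permutation tests (Python 3.11.15, scipy 1.17.1), adjusted over the 8 composition measures. The procedures were tested on simulated data. Copies were matched with blastn against GENCODE M21 transcripts, a match chosen after seeing the data because no genome sequence was used here. The members, gene lists and rules were chosen with earlier results of these data known. Named were all rRNA and protein-coding chrM genes, the tRNA genes with the most and the fewest counts, up to 3 nuclear genes per list, direction and comparison by adjusted p, and always Polrmt, Tfam and Ppargc1a. Other genes were named after their values were seen.

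Alternatives were RLE and upper quartile size factors, the nuclear library size, no or a stricter filter (1 CPM in 3 libraries), DESeq2 1.42.0, limma-voom (limma 3.58.1), only the 2 ages compared, P12 replicates 2 and 3 kept apart, a replicate block, other definitions of the share, and each sample left out in turn. Leaving out the 2 libraries highest in oligodendrocyte markers was added after seeing the data.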

Additional observations from a re-analysis of the deposited data

Results flagged for a closer look

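Of 59 quantities examined in the 4 P310 samples, 4 had a sample far from the others, all of them tRNA genes with low counts, and chance flags about 1 in 20. mt-Tf stood at 6.37 CPM in P310 replicate 2, against 0.659 to 1.51 CPM in the other 3 samples. mt-Td stood at 8.02 CPM in P310 replicate 2, against 0.267 to 1.06 CPM. mt-Tr stood at 9.78 CPM in P310 replicate 2, against 2.12 to 3.3 CPM. mt-Ts2 stood at 7.12 CPM in P310 replicate 1, against 1.6 to 2.21 CPM. P310 replicate 2 is also the sample with the lowest TMM factor (0.631) and 67204 CPM of oligodendrocyte markers, and the part of either in these values was not tested.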

How the results depend on the processing

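The chrM share kept its direction in every comparison and its test over the 4 ages stayed under 0.05 in all 19 alternatives (exact permutation p up to 0.00393). Without 1 sample at a time, chrM genes called higher numbered 0 to 20 from E16 to P12 and 25 to 30 from E16 to P80, and those called in the test over all ages, which has no direction, 26 to 34. From P12 to P80 the count was 20 with no low-count filter, 13 with DESeq2 and 3 with P12 replicates 2 and 3 kept apart. With a replicate block, a term for the replicate number, it was 5 from P12 to P80, 20 from E16 to P12 and 30 from E16 to P80. The shares of all genes called under these alternatives are not given here. Same-numbered libraries of different ages deviated from their age means with correlations of -0.22 to 0.21 in 18 pairs, 3 of them over 0.1. The 45 pairs with other numbers gave -0.22 to 0.24, 6 of them over 0.1. With so few libraries per age, these values cannot tell whether a number stands for a shared batch. The change of mt-Tp from E16 to P80 turned to -0.13 with limma-voom and to between -0.15 and 0.62 without 1 sample. Of the scalings, upper quartile size factors moved the median of all genes from E16 to P80 from 0.12 to 0.24 (log2) and that of the chrM genes from 3.47 to 3.6.

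Nuclear regulators higher from E16 to P12 numbered 1 with RLE and 1 with no filter (0 to 2 without 1 sample). Those lower numbered 3 with upper quartile factors, 3 with no filter, 10 with limma-voom and 1 without the 2 libraries highest in oligodendrocyte markers (1 to 5 without 1 sample). From E16 to P80 the ranges without 1 sample were 2 to 6 higher and 4 to 11 lower, and in the test over all ages 3 to 13 were called, with 19 by limma-voom. Respiratory subunits lower from E16 to P12 numbered 7 with limma-voom, 2 with only those ages and 7 with P12 replicates 2 and 3 kept apart (0 to 6 without 1 sample). From P12 to P80 there was 1 with no filter, and from E16 to P80 8 to 14 without 1 sample. The change of Polrmt from E16 to P80 turned to 0.051 with upper quartile factors, 0.0074 with limma-voom, 0.0046 with only those ages and between -0.24 and 0.097 without 1 sample, and that of Ndufs8 to between -0.060 and 0.53 without 1 sample. Composition measures past the threshold numbered 7 with P12 replicates 2 and 3 kept apart and 3 to 7 without 1 sample. The causes were not tested.

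Only 2 samples at P12, age joined to the myelin bead step and to the cell mix, unstranded counts and low tRNA counts limit what these values show.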
